A study of Mus musculus with 9 samples.

Results

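The spindle assembly checkpoint genes described here are 10 genes chosen by name, *Bub1*, *Bub1b*, *Bub3*, *Mad1l1*, *Mad2l1*, *Ttk*, *Cdc20*, *Mad2l1bp*, *Zw10* and *Zwilch*. All 10 were found among the 15184 genes of the normalized count table, and none was left out by a filter. PolyA+ RNA was sequenced from mouse embryonic fibroblasts (MEFs), which are primary cells grown out of mouse embryos. The 9 libraries comprised 3 of empty vector MEFs and 3 from each line, SAM1 and SAM2, both given the genotype *Hnrnpk* SAM in the labels. According to the study's methods, WT MEFs were transduced with lentiviruses carrying the CRISPR synergistic activation mediator (SAM), a dead Cas9 that brings transcriptional activators to a guide RNA's target, and were then selected with blasticidin and hygromycin. The *Hnrnpk* SAM cells received guides meant to activate *Hnrnpk*, and the control plasmid carried a nontargeting guide. Neither the labels nor the methods state which guide each line carries, or whether the libraries of a line came from separate cultures. The p-values therefore measure the spread between these libraries, which may be technical. In the comparison that pools SAM1 and SAM2 as a single group, this spread also holds the difference between the lines. The methods print the same sequence for the second *Hnrnpk* guide and for the nontargeting guide.

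The spindle assembly checkpoint holds cells in metaphase until every kinetochore is attached to spindle microtubules. At an unattached kinetochore the kinase encoded by *Ttk* (MPS1) phosphorylates the scaffold KNL1, which recruits BUB3 with BUB1 or BUBR1 (*Bub1b*), and the RZZ complex, to which ZW10 and ZWILCH belong, helps to bring in the dimer of MAD1 (*Mad1l1*) and MAD2 (*Mad2l1*). There MAD2 is converted to the form that binds CDC20. MAD2, BUBR1, BUB3 and CDC20 then form the mitotic checkpoint complex, which inhibits the anaphase-promoting complex (APC/C), a ubiquitin ligase that CDC20 otherwise activates against cyclin B and securin. The product of *Mad2l1bp*, p31comet, takes MAD2 out of this complex and silences the signal. In cycling fibroblasts several of these genes are transcribed mainly in G2 and mitosis, and in resting fibroblasts they are repressed.

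The targeted gene did not separate the pooled libraries labelled *Hnrnpk* SAM from empty vector. *Hnrnpk*, which encodes an RNA-binding protein, had normalized counts of 25058, 26098 and 26164 in empty vector, 24102, 24045 and 23619 in SAM1, and 26608, 26859 and 26221 in SAM2. All SAM1 values lay below the empty vector range and all SAM2 values above it. Against empty vector, the 6 libraries labelled *Hnrnpk* SAM had a log2 fold change of -0.03 (limma adjusted p = 0.643). It was -0.11 in SAM1 (limma adjusted p = 0.00252) and 0.04 in SAM2 (limma adjusted p = 0.159), and quantile normalization turned the pooled value to 0.16 (limma adjusted p = 0.0199). Between the lines the log2 difference of SAM2 from SAM1 was 0.15 (limma adjusted p = 2.88e-04). *Hnrnpk* in this table thus gives no common direction by which to check the labels, from which the groups were taken. The study also measured HNRNPK by other assays, which are not analysed here. Reads on the listed genes ranged from 41759636 to 49026626 per library. All 10 fibroblast markers were in the table, with summed normalized counts of 1022300 to 1115800 in empty vector, 843470 to 903970 in SAM1 and 1146500 to 1185200 in SAM2. Single markers moved apart from this sum, with 1 called higher and 3 lower in the pooled comparison, 2 and 8 in SAM1, and 3 and 4 in SAM2. Among all genes the shares were 26.8% higher and 27.0% lower (pooled), 37.3% and 36.9% (SAM1), and 35.2% and 35.3% (SAM2). The matrix gene *Dcn* had a mean of 11815 in empty vector, 2713 in SAM1 and 2538 in SAM2, a log2 fold change of -2.17 (limma adjusted p = 3.12e-09). Of the markers of other cell types, 3 of 5 epithelial, 4 of 5 endothelial, 2 of 5 haematopoietic, 2 of 5 muscle and 2 of 5 neural genes were in the table. The endothelial sum was 301 to 357 in empty vector, 4613 to 4988 in SAM1 and 638 to 689 in SAM2, and the epithelial sum was 1901 to 2045, 3529 to 3963 and 2622 to 2711. The haematopoietic sum was 529 to 639, 753 to 800.1 and 652 to 689, the muscle sum was 88.8 to 127, 338 to 365 and 412 to 457, and the neural sum was 299 to 335, 898 to 937 and 603 to 638. The epithelial *Epcam* and *Krt18*, the endothelial *Emcn* and the haematopoietic *Ptprc*, *Adgre1* and *Itgam* were not among the listed genes. The muscle genes *Myod1*, *Myog* and *Myf5* and the neural *Rbfox3*, *Sox10* and *Gfap* were absent too. Of those present, 1 of 3 epithelial, 1 of 4 endothelial and 1 of 2 haematopoietic genes were called higher in the pooled comparison. For muscle genes this was 2 of 2 and for neural genes 1 of 2, and 0 of any type were called lower in that comparison. In SAM2 alone 2 endothelial genes were called higher and 1 lower, and 1 haematopoietic gene was called higher and 1 lower. The endothelial *Pecam1* was at a mean of 12.9, 29.5 and 12 normalized counts in empty vector, SAM1 and SAM2. Most of the endothelial sum in the lines was *Kdr*, with means of 211 in empty vector, 4693 in SAM1 and 536 in SAM2, whereas *Cdh5* had 77.6, 64.7 and 51.2. *Dcn*, *Pecam1*, *Kdr* and *Cdh5* are named after their values were seen. The part of these cells in the results on the checkpoint genes was not tested.

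Among the libraries labelled *Hnrnpk* SAM, 6 of the 10 checkpoint genes rose against empty vector, 2 fell and 2 did not pass the test (limma on log2(normalized count + 1), Benjamini-Hochberg over all genes, threshold 0.05). The kinase genes *Bub1* and *Ttk*, *Bub1b*, *Mad2l1*, *Cdc20* and *Zwilch* rose, by a log2 fold change from 0.63 to 1.64. *Bub3* and *Mad1l1*, which encode the partners that carry BUB1 and MAD2 to the kinetochore, fell by 0.40 and 0.50 on the log2 scale. Among all listed genes 26.8% were called higher and 27.0% lower, and the median log2 fold change was 0.82 over the 10 genes and 0.01 over all genes. The same 6 genes had all 6 *Hnrnpk* SAM values above all 3 empty vector values, as did 25.9% of all genes. *Bub3* and *Mad1l1* had all of them below, as did 27.2% of all genes. In SAM1 alone 7 checkpoint genes were called higher and 2 lower, beside 37.3% and 36.9% of all genes. In SAM2 alone 6 were called higher and 2 lower, beside 35.2% and 35.3% of all genes. Both lines were compared with the same 3 empty vector libraries. In bulk RNA, more cells in mitosis and more RNA of these genes per cell cannot be told apart.

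**Figure D1:**
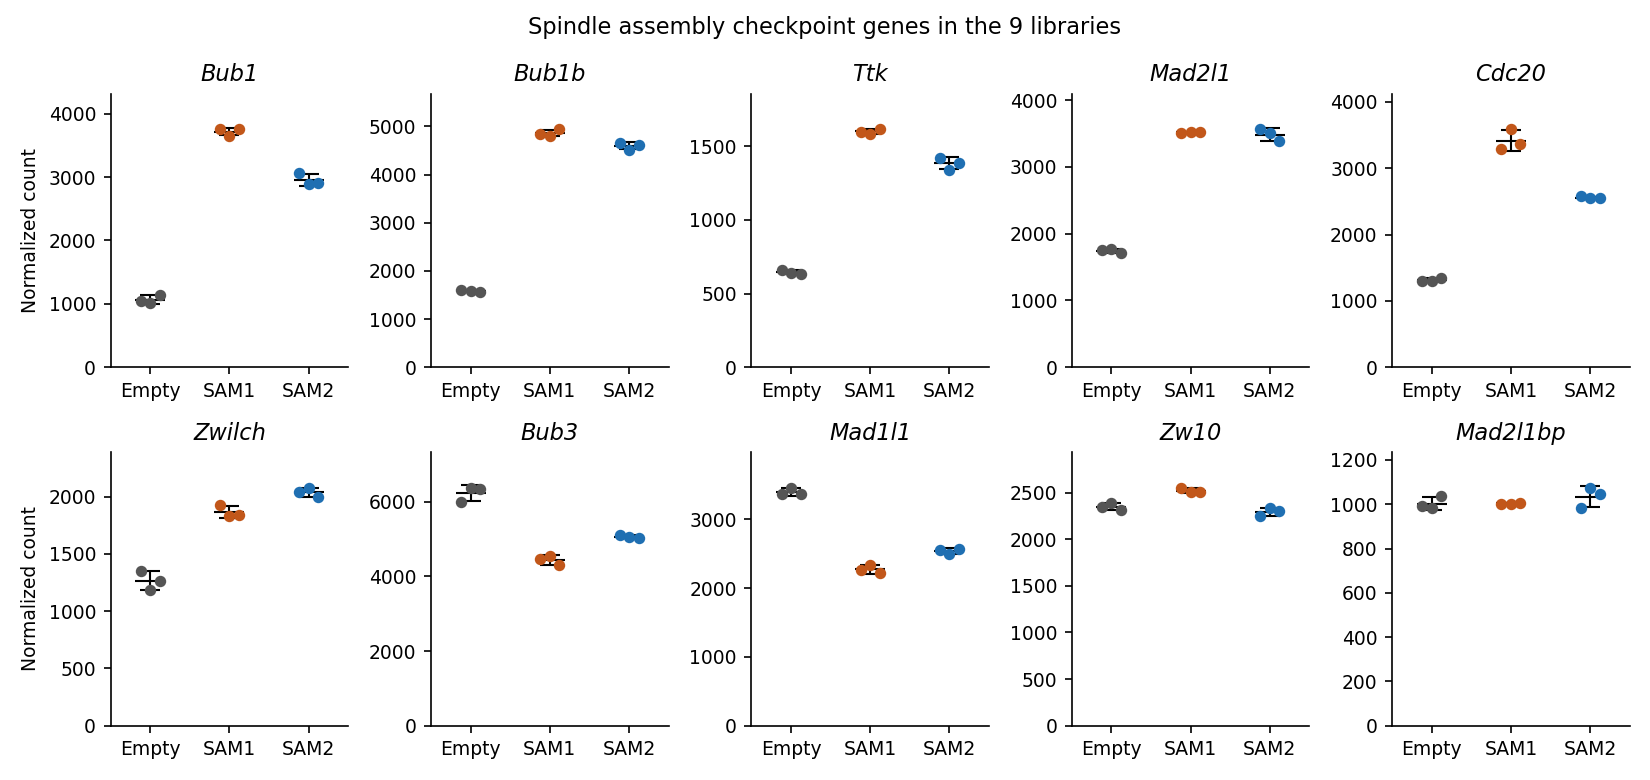
Normalized counts (linear axes starting at 0) of the 10 checkpoint genes in each library, with points for the 3 libraries of each group and black bars for the mean ± SD. The points of both lines lie above empty vector for *Bub1*, *Bub1b*, *Ttk*, *Mad2l1*, *Cdc20* and *Zwilch*, below it for *Bub3* and *Mad1l1*, and overlap it for *Mad2l1bp*, while for *Zw10* SAM1 lies above and SAM2 overlaps.

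The promoter sequences of the genes with the largest pooled rises, *Bub1*, *Bub1b* and *Ttk*, are shown beside those of *Bub3* and *Mad1l1*, which fell. They are the 150 bases before the start of the canonical transcript in GRCm39 (GENCODE vM39), written 5′ to 3′ on the gene's strand. Capitals mark TTTGAA, a form of the cell cycle homology region (CHR) at which the repressor complex of resting cells binds, and CCAAT, the site of NF-Y, on either strand.
Bub1, chr2:127673807-127673956, minus strand: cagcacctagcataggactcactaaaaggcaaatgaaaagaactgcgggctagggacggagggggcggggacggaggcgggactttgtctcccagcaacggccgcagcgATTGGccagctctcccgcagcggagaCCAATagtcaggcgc
Bub1b, chr2:118428534-118428683, plus strand: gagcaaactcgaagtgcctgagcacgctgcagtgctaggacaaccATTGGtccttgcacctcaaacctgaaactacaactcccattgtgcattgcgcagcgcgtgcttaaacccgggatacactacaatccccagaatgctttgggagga
Ttk, chr9:83716549-83716698, plus strand: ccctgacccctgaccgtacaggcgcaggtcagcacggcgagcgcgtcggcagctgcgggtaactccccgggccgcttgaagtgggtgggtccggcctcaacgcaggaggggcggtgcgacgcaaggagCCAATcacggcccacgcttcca
Bub3, chr7:131161932-131162081, plus strand: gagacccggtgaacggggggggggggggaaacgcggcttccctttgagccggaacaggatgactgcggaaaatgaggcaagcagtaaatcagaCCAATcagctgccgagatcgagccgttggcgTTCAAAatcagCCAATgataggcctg
Mad1l1, chr5:140307352-140307501, minus strand: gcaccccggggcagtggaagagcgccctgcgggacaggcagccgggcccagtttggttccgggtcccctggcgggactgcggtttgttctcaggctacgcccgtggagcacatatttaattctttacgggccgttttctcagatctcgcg
In a window from 250 bases before to 50 bases after the start, searched on both strands, CCAAT was found in 5 of the 10 checkpoint genes (*Bub1*, *Bub1b*, *Bub3*, *Ttk* and *Cdc20*) and in 39.1% of the 14790 promoters of listed genes. TTTGAA was found in 4 (*Bub3*, *Cdc20*, *Zw10* and *Zwilch*) and in 14.2% of all promoters, and the other CHR form, TTCGAA, in *Bub1* and *Bub1b* and in 2.20% of all promoters. The matches to TTCGAA begin at position 42 in *Bub1* and at -180 in *Bub1b*, outside the stretches printed. Both a CHR form and CCAAT were present in 4 of the 10 genes and in 6.82% of all promoters. The E2F forms TTTGGCGC and TTTCGCGC were found in none of the 10 and in 1.28% of all promoters. The matches did not follow the direction of change, since *Bub3*, which fell, holds CCAAT at -57 and -15 and TTTGAA on the opposite strand at -26, whereas the window of *Mad2l1*, which rose, holds none of these letters. No motifs overlapped in these 5 stretches, and a match is only a description of the letters.

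Among the kinases and the BUB proteins, the genes for the enzymes rose and *Bub3* fell. *Bub1* encodes the kinase that marks centromeric chromatin and scaffolds the checkpoint proteins. It lies at chr2:127643036-127673806 on the minus strand. It had normalized counts of 1049, 1010.5 and 1142.5 in empty vector replicates 1 to 3, 3753, 3649 and 3756 in SAM1, and 3061, 2898.5 and 2901 in SAM2. The groups did not overlap, and both lines stood far above empty vector. The log2 fold change was 1.64 (SE 0.104, 95% confidence interval 1.40 to 1.87, limma adjusted p = 1.63e-06), a 3.11-fold rise and the largest of the 10 genes in the pooled comparison, whereas in SAM2 alone the value was 1.47 for *Bub1* and 1.54 for *Bub1b*. *Bub1b*, on the same chromosome at chr2:118428684-118472076 (plus strand), encodes BUBR1, the subunit of the mitotic checkpoint complex that blocks the APC/C. It had 1602, 1577 and 1565 normalized counts in empty vector, 4844.5, 4808 and 4941.5 in SAM1, and 4658, 4516 and 4606 in SAM2. Here too no library of the lines came near empty vector. This was a log2 fold change of 1.58 (SE 0.0383, 95% confidence interval 1.49 to 1.67, limma adjusted p = 6.61e-09). *Ttk*, at chr9:83703392-83755037 on the plus strand, encodes the kinase MPS1 at the top of the pathway. Its normalized counts were 659, 639 and 632 in empty vector, 1599, 1586 and 1615 in SAM1, and 1422, 1341 and 1385 in SAM2. All values of the lines were more than those of empty vector, and those of SAM1 were above those of SAM2. *Ttk* rose by 1.21 on the log2 scale (SE 0.0711, limma adjusted p = 9.94e-07).

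*Bub3* encodes the WD-repeat protein that carries BUB1 and BUBR1 to KNL1 and stays in the mitotic checkpoint complex. It lies at chr7:131161880-131178553 on the plus strand. Normalized counts of *Bub3* were 5999, 6381 and 6354 in empty vector, 4468, 4545 and 4299 in SAM1, and 5105, 5063 and 5032 in SAM2. Every library of the lines was lower than every empty vector library, with SAM1 the lowest. The log2 fold change was -0.40 (SE 0.0642, 95% confidence interval -0.54 to -0.25, limma adjusted p = 6.18e-04). The ratio of *Bub1b* to *Bub3* in normalized counts, for which no test was made, was 0.254 ± 0.0117 (SD, n = 3) in empty vector, 1.10 ± 0.0472 in SAM1 and 0.907 ± 0.0128 in SAM2. The ratio of *Bub1* to *Bub3* was 0.171 ± 0.0112, 0.839 ± 0.0355 and 0.583 ± 0.0146 in the same order. The RNAs of the partners that bind the carrier thus stood 4.33 and 3.58 times (*Bub1b*) and 4.91 and 3.41 times (*Bub1*) higher against it in SAM1 and SAM2 than in empty vector.

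In the MAD branch, *Mad2l1* rose and *Mad1l1* fell. *Mad2l1*, at chr6:66512208-66524204 on the plus strand, encodes MAD2, the protein that binds and sequesters CDC20. It had 1757.5, 1765 and 1708 normalized counts in empty vector, 3515, 3531 and 3521 in SAM1, and 3566, 3506 and 3387 in SAM2. The values of both lines overlapped each other and lay well above empty vector. The log2 fold change was 1.01 (SE 0.0326, 95% confidence interval 0.93 to 1.08, limma adjusted p = 2.98e-08), a 2.01-fold rise. *Mad1l1*, at chr5:139994439-140307351 on the minus strand, encodes MAD1, the coiled-coil protein that anchors MAD2 at the kinetochore and templates its conversion. Its normalized counts were 3375, 3460.1 and 3363 in empty vector, 2267, 2332.5 and 2215 in SAM1, and 2559.5, 2494 and 2564 in SAM2. No library of the lines reached the empty vector range. *Mad1l1* changed by -0.50 on the log2 scale (SE 0.0561, 95% confidence interval -0.63 to -0.38, limma adjusted p = 6.00e-05). The ratio of *Mad2l1* to *Mad1l1*, given with no test, was 0.513 ± 0.00693 (SD, n = 3) in empty vector, 1.55 ± 0.0378 in SAM1 and 1.37 ± 0.0457 in SAM2.

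*Mad2l1bp*, at chr17:46458312-46464479 on the minus strand, encodes p31comet, which together with the ATPase TRIP13 turns MAD2 back to its inactive form. Its normalized counts were 992, 982 and 1035 in empty vector, 1003, 1000.3 and 1007 in SAM1, and 984, 1075 and 1046 in SAM2. All 3 groups overlapped. Its log2 fold change was 0.02 (95% confidence interval -0.08 to 0.12, limma adjusted p = 0.696). Against this level the RNA of its substrate went up, so that the ratio of *Mad2l1* to *Mad2l1bp* was 1.77, 1.80 and 1.65 in empty vector, 3.50, 3.53 and 3.50 in SAM1, and 3.62, 3.26 and 3.24 in SAM2.

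*Cdc20*, at chr4:118290098-118294610 on the minus strand, encodes the APC/C activator that the checkpoint holds. It had 1293, 1297 and 1345 normalized counts in empty vector, 3284, 3589 and 3372 in SAM1, and 2575, 2552 and 2544 in SAM2. The 3 groups were separate, with SAM1 the highest. This gave a log2 fold change of 1.17 (SE 0.124, 95% confidence interval 0.89 to 1.45, limma adjusted p = 4.04e-05). The ratio of *Cdc20* to *Mad2l1*, its inhibitor, was 0.736, 0.735 and 0.787 in empty vector, 0.934, 1.02 and 0.958 in SAM1, and 0.722, 0.728 and 0.751 in SAM2. SAM2 overlapped empty vector in this ratio and SAM1 did not. The canonical transcript of *Cdc20* shares 53 exon bases with that of *Elovl1* on the opposite strand, and the strand setting of the counting is not given in the sources used here, so reads from this stretch cannot be told apart.

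The listed subunits of the RZZ complex differed. *Zwilch*, at chr9:64044374-64080386 on the minus strand, had normalized counts of 1349, 1186 and 1262 in empty vector, 1925, 1835 and 1841 in SAM1, and 2040.3, 2079 and 1998 in SAM2. Both lines were above the highest empty vector library, and SAM2 was above SAM1. *Zwilch* had a log2 fold change of 0.63 (SE 0.0586, 95% confidence interval 0.49 to 0.76, limma adjusted p = 1.82e-05), and it did not pass when values were taken relative to *Actb* and *Gapdh* (0.41, limma adjusted p = 0.0619). *Zwilch* shares 254 exon bases with *Lctl* on the opposite strand. *Zw10*, at chr9:48966804-48990105 on the plus strand, had 2345, 2391 and 2320.1 normalized counts in empty vector, 2554, 2507 and 2506 in SAM1, and 2251, 2337.5 and 2299 in SAM2. SAM1 lay slightly above empty vector and SAM2 overlapped it. The pooled log2 fold change of *Zw10* was 0.03 (95% confidence interval -0.08 to 0.15, limma adjusted p = 0.600). It was 0.10 in SAM1 (limma adjusted p = 0.0102) and -0.03 in SAM2 (limma adjusted p = 0.336), and relative to *Actb* and *Gapdh* the SAM1 value turned to -0.31 (limma adjusted p = 1.55e-06). Scaling each library to the same sum brought the pooled values of *Zw10* (0.16, limma adjusted p = 0.0468) and *Mad2l1bp* (0.15, limma adjusted p = 0.0181) past the threshold. The ratio of *Zwilch* to *Zw10* was 0.538 ± 0.0400 (SD, n = 3) in empty vector, 0.740 ± 0.0119 in SAM1 and 0.888 ± 0.0188 in SAM2.

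**Figure D2:**
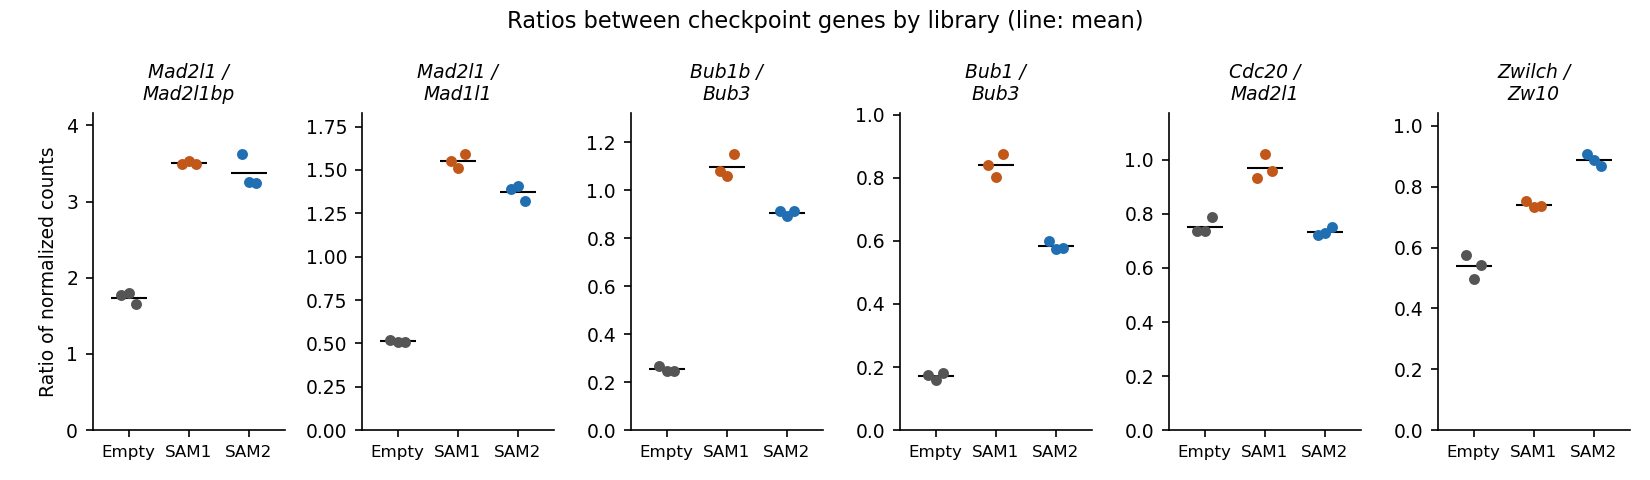
Ratios of normalized counts between pairs of checkpoint genes (linear axes starting at 0) in each library, with points for libraries and a line for the mean of 3. The ratios to *Bub3*, *Mad1l1* and *Mad2l1bp* are higher in all 6 libraries of the lines than in empty vector, while *Cdc20* over *Mad2l1* is higher only in SAM1.

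For the 8 genes called in the pooled comparison, the lines differed from each other by less than either differed from empty vector. Of the 10 genes, 3 were called higher and 5 lower in SAM2 than in SAM1, beside 31.1% and 29.2% of all genes. *Cdc20* differed most, with a log2 difference of SAM2 from SAM1 of -0.42 (SE 0.0375, limma adjusted p = 7.33e-07). *Bub1* (-0.33, limma adjusted p = 2.83e-05) and *Ttk* (-0.21, limma adjusted p = 4.34e-04) were also lower in SAM2. The genes below empty vector were nearer to it in SAM2, where *Bub3* was higher than in SAM1 by 0.19 (limma adjusted p = 2.32e-04) and *Mad1l1* by 0.16 (limma adjusted p = 7.64e-04). *Zw10* was lower in SAM2 (-0.14, limma adjusted p = 0.00213). For *Mad2l1* the difference was -0.02 (95% confidence interval -0.08 to 0.05, limma adjusted p = 0.698) and for *Mad2l1bp* 0.04 (95% confidence interval -0.05 to 0.14, limma adjusted p = 0.410). The difference of *Bub1b* (-0.08, limma adjusted p = 0.0258) was lost without SAM1 replicate 1 (limma adjusted p = 0.0557), SAM1 replicate 3 (0.0947), SAM2 replicate 2 (0.106) or SAM2 replicate 3 (0.0616). That of *Zwilch* (0.13, limma adjusted p = 0.0295) was lost without SAM1 replicate 2 (limma adjusted p = 0.0686), SAM1 replicate 3 (0.0817), SAM2 replicate 1 (0.0727) or SAM2 replicate 2 (0.0981). These directions depend on the scaling, since relative to *Actb* and *Gapdh*, which themselves differ between the lines, 8 of the 10 genes were called higher in SAM2 and 0 lower. That scaling shifted the whole table, with 11784 of all 15184 genes called between the lines and a median of 0.38 over all genes.

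**Figure D3:**
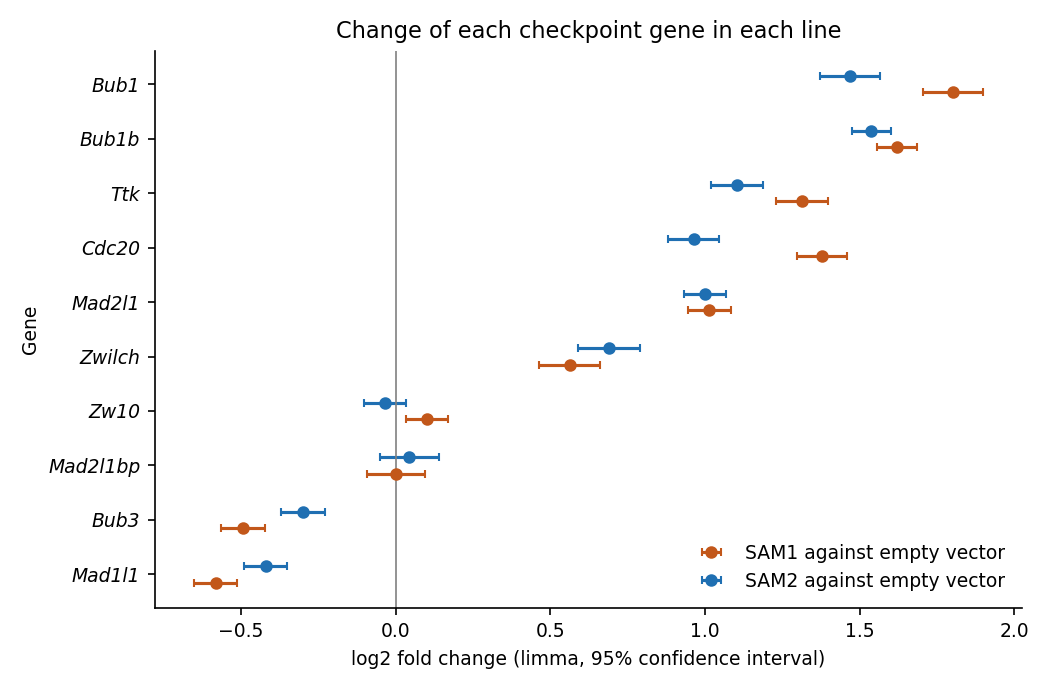
log2 fold change of each checkpoint gene in SAM1 (orange) and SAM2 (blue) against the same 3 empty vector libraries, with 95% confidence intervals from limma. *Cdc20*, *Bub1* and *Ttk* are further from 0 in SAM1, with values of 1.38, 1.80 and 1.31 against 0.96, 1.47 and 1.10 in SAM2, while *Mad2l1* is at 1.01 and 0.999.

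The order of the genes by level was different in the lines. Levels were compared as normalized counts per kilobase of the canonical transcript, which need not be the isoform that these cells use. In empty vector *Mad1l1* was the highest of the 10 at 1264 ± 19.6 (SD, n = 3), followed by *Mad2l1* at 967 ± 17.1 and *Bub3* at 859 ± 29.3. The ranges over libraries of *Bub3* and *Zw10* overlapped, as did those of *Zw10* and *Mad2l1bp* and those of *Bub1b* and *Zwilch*. *Bub1* (310 ± 19.7) and *Ttk* (182 ± 3.94) were the lowest. In SAM1 *Mad2l1* (1954 ± 4.66) and *Cdc20* (1842 ± 84.5) led, and their library values did not overlap, with *Bub1b* (1323 ± 18.8) and *Bub1* (1079 ± 17.7) next. *Mad1l1* stood at 845 ± 21.9 and *Bub3* at 610.0 ± 17.3 there, and *Ttk* (452 ± 4.15) was again the lowest. The ranges of *Zw10* and *Mad1l1* overlapped in SAM1, as did those of *Zwilch* and *Bub3*. SAM2 had *Mad2l1* (1934 ± 50.7), *Cdc20* (1379 ± 8.77) and *Bub1b* (1250 ± 19.6) at the top as well, with *Mad1l1* at 944 ± 14.5 before *Bub1* at 857 ± 27.0. *Bub3* (697 ± 5.07) and *Zwilch* (690 ± 13.7) overlapped in SAM2, and so did *Bub1* with *Mad2l1bp* and *Mad2l1bp* with *Zw10*.

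The kinetochore proteins and kinases that work with the checkpoint rose with it. Of 24 listed partners, 23 were in the table (all but *Usp44*), 22 were called higher, 0 lower and 1, *Zwint*, did not pass (0.07, limma adjusted p = 0.179), beside 26.8% of all genes called higher and 27.0% lower. Their median log2 fold change was 0.96, and *Usp44* and *Zwint* are named after their values were seen. Relative to *Actb* and *Gapdh*, 19 partners were called higher and 0 lower in the pooled comparison, and 20 and 2 in SAM1. That scaling moved the median of all genes by -0.21 (pooled) and -0.40 (SAM1). With quantile normalization or scaling to the same sum, 23 were called higher in the pooled comparison. *Knl1*, the scaffold that TTK phosphorylates, went from 532 ± 61.5 normalized counts in empty vector (SD, n = 3) to 1731 ± 107 in SAM1 and 1793 ± 23.8 in SAM2, a log2 fold change of 1.73 (limma adjusted p = 1.40e-07). *Sgo1*, the shugoshin that protects centromeric cohesion, rose by 1.22 on the log2 scale (limma adjusted p = 1.69e-08). *Plk1*, the polo kinase that supports MPS1 signalling, rose by 1.22 (limma adjusted p = 2.63e-08), and *Nuf2*, a subunit of the NDC80 complex that binds microtubules, by 1.14 (limma adjusted p = 3.82e-08). The list is not independent of the cell cycle as a whole, since 7 of the partners are also on the G2/M list distributed with Seurat. On that list 51 genes are not checkpoint genes of the 10. Of these, 48 were called higher, 2 lower and 1 did not pass, against the same shares of all genes, with a median of 1.14. Relative to *Actb* and *Gapdh*, 42 of these genes were called higher and 2 lower in the pooled comparison, and 42 and 4 in SAM1. Their summed normalized counts were 131930 to 132370 in empty vector, 235000 to 237350 in SAM1 and 227380 to 228640 in SAM2. *Bub1*, *Ttk* and *Cdc20* are themselves on the G2/M list, and the other 7 checkpoint genes are not.

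The genes of the APC/C, the target of the checkpoint, and of its E2 enzymes did not move as a block. Of 16 subunits of the APC/C and its E2 enzymes, 2 were called higher, 8 lower and 6 did not pass, beside 26.8% and 27.0% of all genes. Their median log2 fold change was -0.15. The 2 called higher were the E2 enzymes *Ube2c* and *Ube2s*, and all 8 called lower were APC/C subunits. *Ube2s* is named after its value was seen. Scaling each library to the same sum changed these counts to 4 higher and 3 lower. *Ube2c*, the E2 enzyme that starts ubiquitin chains, went from 1014 ± 52.8 normalized counts in empty vector (SD, n = 3) to 3425 ± 63.8 in SAM1 and 3117 ± 46.0 in SAM2, a log2 fold change of 1.69 (limma adjusted p = 3.15e-08). Of the ligase's own subunits, *Anapc11*, the RING subunit that binds the E2, fell by 0.62 on the log2 scale (limma adjusted p = 1.97e-04). *Anapc4*, a scaffold subunit, fell by 0.31 (limma adjusted p = 8.53e-05) and *Cdc16*, a subunit with tetratricopeptide repeats, by 0.24 (limma adjusted p = 1.26e-04). These 4 genes kept their direction and passed the test under each scaling tried.

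Among the substrates of APC/C and CDC20, the cyclins and securin went opposite ways. Of the 5 genes for these substrates and for separase, 4 were called higher and 1 lower in the pooled comparison, beside 26.8% and 27.0% of all genes. The counts were the same in each line. *Ccna2*, which encodes cyclin A2, rose by 1.43 on the log2 scale (limma adjusted p = 8.10e-09). *Ccnb1* and *Ccnb2*, which encode the mitotic B-type cyclins, rose by 1.41 (limma adjusted p = 2.79e-07) and 1.12 (limma adjusted p = 1.96e-07). *Espl1*, which encodes separase, the protease that opens cohesin at anaphase, had 1059 ± 48.7 normalized counts in empty vector, 3420.4 ± 179 in SAM1 and 3556 ± 65.6 in SAM2 (log2 fold change 1.72, limma adjusted p = 1.45e-08). *Pttg1*, which encodes securin, the inhibitor of separase, fell from 1703 ± 67.3 in empty vector to 1265 ± 106 in SAM1 and 1294 ± 43.2 in SAM2 (log2 fold change -0.41, limma adjusted p = 2.53e-04). *Pttg1* thus stood with *Bub3* and *Mad1l1* as a gene of this pathway that was lower in both lines.

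Of 3 relatives of the checkpoint proteins with other main roles, 2 were called higher and 1 lower, beside 26.8% and 27.0% of all genes. *Fzr1*, which encodes CDH1, the activator that takes over from CDC20 at the end of mitosis, rose by 0.43 on the log2 scale (limma adjusted p = 1.87e-05). *Mad2l2*, a relative of *Mad2l1* in DNA repair, rose by 0.30 (limma adjusted p = 0.00299). Relative to *Actb* and *Gapdh* neither passed, with limma adjusted p = 0.236 for *Fzr1* and 0.593 for *Mad2l2*. *Rae1*, a relative of *Bub3* in mRNA export, fell by 0.28 (limma adjusted p = 3.00e-04).

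**Figure D4:**
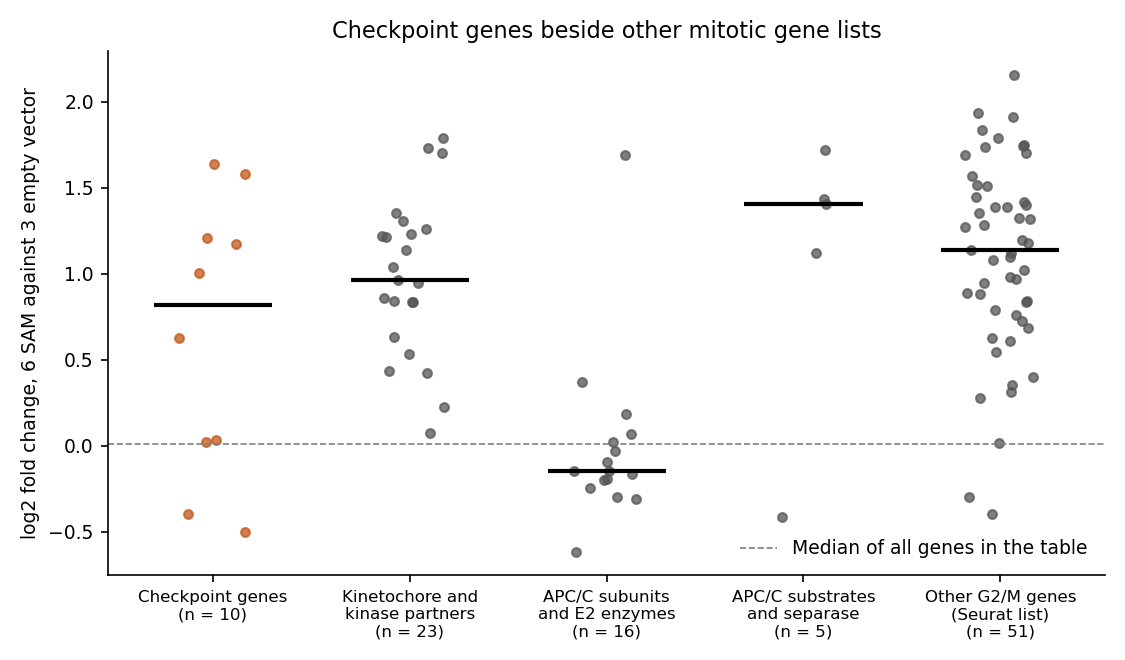
log2 fold change (6 SAM against 3 empty vector libraries) for each gene (point) of 5 lists, with the list median as a black bar and the median of all genes as a dashed line. The medians are 0.82 for the 10 checkpoint genes, 0.96 for their partners, -0.15 for the APC/C subunits and E2 enzymes, 1.41 for the substrates and separase, and 1.14 for the other G2/M genes.

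Genes close to each member on the chromosome were read beside it. Their counts are of the pooled comparison, in which 26.8% of all genes were called higher and 27.0% lower. Within 1 Mb of *Bub3* the median log2 fold change of the 14 other listed genes was -0.32, with 3 called higher and 8 lower, close to the -0.40 of *Bub3* itself, and the median of chromosome 7 was -0.24. For *Mad1l1* the 29 neighbours had a median of -0.07, nearer to 0 than the gene's own -0.50. The genes that rose stood further from their surroundings. *Bub1b* had 1.58 beside a median of 0.37 over 36 neighbours, and *Bub1* had 1.64 beside 0.17 over 23. *Cdc20* rose where 16 of its 29 neighbours were called lower and 1 higher (median -0.21). *Ttk* (1.21 beside 0.08), *Mad2l1* (1.01 beside 0.19) and *Zwilch* (0.63 beside -0.14) were also above their neighbours. *Zw10*, at 0.03, had 9 neighbours with a median of -0.31. The part of the chromosome surroundings in these values was not tested.

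**Figure D5:**
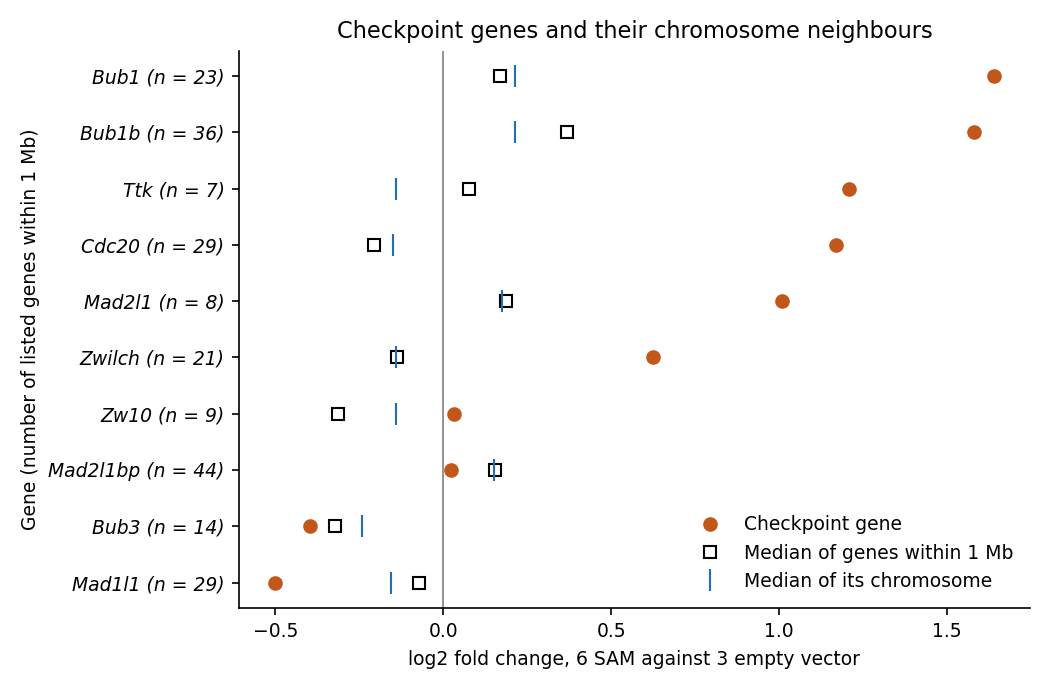
log2 fold change of each checkpoint gene (filled circle) beside the median of the listed genes within 1 Mb (open square) and of its chromosome (blue tick), for the 6 SAM against the 3 empty vector libraries. *Bub3* lies next to its neighbours' median, -0.40 beside -0.32, while *Bub1* (1.64 beside 0.17), *Cdc20* (1.17 beside -0.21) and *Ttk* (1.21 beside 0.08) lie far above theirs.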

How the data were processed

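PolyA+ RNA was converted to libraries by a directional protocol and read on a NextSeq 500. Per the study's methods and the labels, the authors checked reads with FastQC 0.11.0, aligned them to GRCm39 with TopHat2, counted them with HTSeq on Gencode annotation, divided counts by DESeq2 size factors and kept genes above 10 in 30% of samples. What they deposited is thus a signal, normalized counts rather than raw ones. The alignment allowed reads with several hits, and how the counting treated such reads is not stated.

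Values were tested with limma 3.58.1 (empirical Bayes with a trend) in R 4.3.3 on log2(value + 1), which slightly understates changes of low genes, with Benjamini-Hochberg adjustment over 15184 genes and a threshold of 0.05. One fit compared the 6 SAM with the 3 empty vector libraries, and another with 3 groups gave each line and their difference. Groups came from the labels. In all 9 libraries 100% of values were whole multiples of 1 read within 0.01, so that edgeR 4.0.16 and DESeq2 1.42.0 were run on these reads as alternatives. Pairs of libraries of a group differed by more than sampling noise (chi-square per gene 1.45 to 12.9), and the median SD within groups was 0.0657 (log2). On simulated counts of the pooled comparison limma called 158 of 200 changed genes among 15184 and 5 unchanged ones. The simulation used a dispersion of 0.02 for every gene and the same change in both lines. It thus holds no difference between SAM1 and SAM2 and does not give the error rates of the pooled test on the real values. Positions and promoters were read from GRCm39, where GENCODE vM39 held 14791 of the table's names exactly once, and sequences are printed as in that assembly. G2/M and S lists came from Seurat 5.3.0, with human symbols written as mouse symbols, and the other lists were written from general knowledge. The 10 genes and the lists were chosen with earlier results of these data known. Named genes are the 10, *Hnrnpk*, in each list of partners, APC/C genes and substrates the 4 with the smallest pooled adjusted p and the 2 called lower with the smallest, and the 3 relatives. Alternatives were other pseudocounts, a stricter filter, other scalings, the replicate block, no trend, the count tests, the mean of the lines, and each library left out in turn. Genes removed by that filter were not used here.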

Additional observations from a re-analysis of the deposited data

Results flagged for a closer look

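For 8 of the 10 checkpoint genes the change from empty vector differed between the lines by the test of the difference itself (limma, 3 groups, n = 3 libraries each). By this test 31.1% of all genes were called higher and 29.2% lower in SAM2 than in SAM1, so such a difference was common. The log2 difference of SAM2 from SAM1 was -0.33 for *Bub1* (limma adjusted p = 2.83e-05), -0.083 for *Bub1b* (0.0258), -0.21 for *Ttk* (4.34e-04), -0.42 for *Cdc20* (7.33e-07) and -0.14 for *Zw10* (0.00213). It was 0.19 for *Bub3* (limma adjusted p = 2.32e-04), 0.16 for *Mad1l1* (7.64e-04) and 0.13 for *Zwilch* (0.0295). For *Bub1*, *Bub1b*, *Ttk*, *Cdc20*, *Bub3*, *Mad1l1* and *Zw10* the value of SAM2 was the nearer to empty vector, and for *Zwilch* that of SAM1 was. Groups of 3 libraries were not searched for outlying samples.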

How the results depend on the processing

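Of 770 values of the 10 genes over 20 alternative settings, 735 kept their direction and side of the threshold. The 8 pooled calls kept their direction in every setting. Relative to *Actb* and *Gapdh*, which moved the median of all genes by -0.21 (pooled), -0.40 (SAM1) and 0.38 (SAM2 against SAM1), 4 genes were called lower in SAM1, and 8 were higher and 0 lower in SAM2 than in SAM1. Of all 15184 genes, 12321 were called in SAM1 and 11784 between the lines with these 2 genes as reference. Under this scaling the log2 difference of SAM2 from SAM1 turned to 0.054 for *Bub1*, 0.30 for *Bub1b*, 0.37 for *Mad2l1*, 0.18 for *Ttk* and 0.25 for *Zw10*. That of *Cdc20* shrank from -0.42 to -0.029 and no longer passed the test. The pooled values turned to -0.19 for *Mad2l1bp* and -0.18 for *Zw10*, and those in SAM1 to -0.41 and -0.31. Quantile normalization turned *Mad2l1bp* to -0.036 (pooled), -0.041 (SAM1) and -0.031 (SAM2), and scaling to the same sum, which moved the pooled median of all genes by 0.13, turned *Zw10* to 0.069 in SAM2. With each library left out in turn, *Mad2l1bp* in SAM1 ranged from -0.0143 to 0.0236 and *Mad2l1* between the lines from -0.0316 to 0.00564. The cause of these turns was not tested. The replicate block, added to the fit as a term, left the pooled counts at 6 higher and 2 lower and changed no call of the 10 genes, while over all genes it called 7343 in place of 8179. Same-numbered libraries of different groups correlated with r from 0.00237 to 0.117 (9 pairs), and 8 of 9 libraries correlated best with one of their own number. The mean r was 0.0531 for the same number and -0.0265 for different numbers, a weak link between same-numbered libraries. What the numbers stand for is not stated in the labels, and the main fits did not use them. The fit of the mean of the lines, which took the spread within the 3 groups, called 11323 genes in place of 8179. Without SAM1, SAM2 or empty vector libraries one at a time, the lost calls were those of *Bub1b* and *Zwilch* between the lines. Over all 19 alternatives of that comparison, *Zwilch* kept its call in 12 and *Bub1b* in 14. The median SD within groups, 0.0657 on the log2 scale with 3 libraries each, limits which differences could be seen.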

Other observations

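Genes of S phase were also higher in the libraries labelled *Hnrnpk* SAM, although none of the 10 checkpoint genes is among them. Of 43 genes on the S phase list distributed with Seurat, 33 were called higher, 2 lower and 8 did not pass the test (limma, adjusted over all genes), beside 26.8% of all genes called higher and 27.0% lower, with a median log2 fold change of 0.59. In SAM1 36 were called higher and 4 lower, beside 37.3% and 36.9% of all genes. In SAM2 35 were called higher and 2 lower, beside 35.2% and 35.3%, against the same 3 empty vector libraries. Their summed normalized counts were 89968 to 92041 in empty vector, 133060 to 133400 in SAM1 and 120460 to 120990 in SAM2.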
